A study of Mus musculus with 18 samples.

Results

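Across 18 mouse RNA-seq libraries, the levels of 9 genes of the endothelial surface and its junctions were examined: Pecam1, Cdh5, Emcn, Esam, Cldn5, Egfl7, Icam2, Ramp2 and Mmrn2. They were chosen by symbol from the 21881 gene symbols in the count tables, with earlier results of these data known. Shares of all tested genes given beside their counts are therefore a description and not a test of an independent list. All 9 were present in every table, and all 9 were among the 16231 symbols that passed the filter on low counts.

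The study asked how BMP and Hedgehog signals act in the aorta-gonad-mesonephros region (AGM), the part of the embryo where blood stem cells first form. Cells came from C57BL6 embryos at embryonic day 11 that all carried BRE-GFP, a transgene in which a BMP response element drives green fluorescent protein. EC libraries are endothelial-enriched cells sorted as CD31 positive and Kit negative, HPSC libraries are hematopoietic progenitor and stem cell enriched (CD31 positive, Kit positive), and MC libraries are mesenchymal-enriched (CD31 negative, Kit negative). Each population was taken from fresh AGM, from explants of AGM kept in medium with BMP and Hedgehog, and from explants kept likewise but with cyclopamine added, a blocker of the Hedgehog transducer Smoothened. Each was also split into a BRE-GFP negative and a BRE-GFP positive fraction, which gives 18 combinations with 1 library each. The sources used here do not give the number of embryos behind a library, the length of culture, the doses or where the reporter is inserted. Every group carried the reporter, and cyclopamine was given only in explants, so its effect can be read only against explants. With no repeat libraries, p-values measure only the spread between these libraries, taken over blocks of matched ones. That spread may be technical, and it also holds any difference of an effect between cultures, populations or fractions.

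Endothelial cells hold to each other through adherens junctions, built around VE-cadherin and its catenins, and through tight junctions, built around claudins and ESAM-type adhesion molecules. Their surface also carries sialomucins such as endomucin and immunoglobulin-type adhesion molecules that leukocytes bind. In the AGM, blood progenitors arise from endothelium that lines the dorsal aorta, and the emerging cells keep part of this surface for a time.

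Library totals ran from 3041249 to 21972063 counts, and 10297 to 18816 symbols had at least 1 count. The fewest were detected in EC cyclopamine negative (11006), HPSC cyclopamine negative (10297) and MC fresh positive (12028). Levels are CPM, counts scaled to a common library size after TMM scaling of the totals, a method that corrects for differences in what each library is made of. The CD31-sorted libraries also held transcripts of other cells: the 8 macrophage marker genes summed to 810 to 6090 CPM in EC, 573 to 4120 CPM in HPSC and 45.4 to 146 CPM in MC, with all 8 above 0 in 17 of 18 libraries (Fcgr1 was at 0 in EC cyclopamine negative). The 8 platelet genes summed to 804 to 3590 CPM in EC and 127 to 426 CPM in HPSC, and the 7 mesenchymal genes to 754 to 5180 CPM in EC against 1950 to 5690 CPM in MC. In such bulk samples, fewer cells of a type and less RNA per cell cannot be told apart.

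Of the 9 genes, 3 had an entry in the table of promoter sequences used here (RefSeq, GRCm38.p6; 250 bases before to 50 after a transcript start): Emcn, Cldn5 and Egfl7, the last with 3 starts. ETS factors such as ERG and FLI1 are known regulators of endothelial junction genes, so the ETS core GGAA, read on both strands (TTCC on the printed strand), is in capitals in the sequences shown, all on the plus strand. They are shown because these genes varied together over the libraries while their promoters carried this core to different extents. The windows are chr3:137340828-137341127 for Emcn, chr2:26580833-26581132 for the first start of Egfl7 and chr16:18776597-18776896 for Cldn5.
Emcn: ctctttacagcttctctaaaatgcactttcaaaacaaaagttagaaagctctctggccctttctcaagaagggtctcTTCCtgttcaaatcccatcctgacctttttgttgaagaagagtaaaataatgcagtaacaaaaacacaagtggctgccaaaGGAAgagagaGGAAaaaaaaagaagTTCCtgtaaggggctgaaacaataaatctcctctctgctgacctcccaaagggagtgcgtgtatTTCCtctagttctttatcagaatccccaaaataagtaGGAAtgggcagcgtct
Egfl7: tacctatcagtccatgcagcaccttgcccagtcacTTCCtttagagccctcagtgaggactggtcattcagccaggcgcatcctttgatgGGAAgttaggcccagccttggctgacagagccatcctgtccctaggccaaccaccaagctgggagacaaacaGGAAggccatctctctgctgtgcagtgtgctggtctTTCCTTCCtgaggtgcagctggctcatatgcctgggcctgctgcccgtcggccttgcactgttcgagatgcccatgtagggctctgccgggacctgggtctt
Cldn5: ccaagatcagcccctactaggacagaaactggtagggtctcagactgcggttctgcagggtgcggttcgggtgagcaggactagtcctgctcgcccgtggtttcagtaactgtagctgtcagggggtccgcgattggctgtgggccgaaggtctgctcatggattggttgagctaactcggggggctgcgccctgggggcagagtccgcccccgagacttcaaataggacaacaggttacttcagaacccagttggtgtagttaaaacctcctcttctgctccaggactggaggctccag
The core occurred 6 times in the Emcn window, 4 of them beginning within the 100 bases before the start, 5 times in this Egfl7 window and 0 times in that of Cldn5. The other starts of Egfl7 (chr2:26583615-26583914 and chr2:26586386-26586685) held 4 and 1. The median over all 32851 windows in the table was 3, and 96.0% held at least 1, so holding the core is common to most promoters. The longer ETS form CAGGAAG, both strands, was in 3 of the 5 windows against 13.3% of all windows. They were the Emcn window and the Egfl7 windows at chr2:26580833-26581132 and chr2:26583615-26583914. As 3 of the 5 windows belong to Egfl7, the 5 do not stand for separate genes. CCGGAAG (8.86% of all windows), the GATA motif AGATAA (11.2%), the FOX motif TAAACA (13.4%) and the TATA box TATAAA (13.6%) were in 0 of the 5. A match is a description of letters and not of binding.

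Egfl7 also carries miR-126a, an endothelial microRNA, within its transcribed region (hairpin at chr2:26591357-26591429, plus strand, GRCm38.p6). All 73 bases of the hairpin fall within annotated exon bases of Egfl7 in GENCODE M21. The mature form is shown with its seed, bases 2 to 8, in capitals, because an Egfl7 count reports the host transcript and says nothing of this product.
mmu-miR-126a-3p: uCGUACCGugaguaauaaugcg

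Transcripts of the junction and surface genes were far lower in MC than in both CD31-positive populations. Against EC, 7 of 9 were lower in MC by edgeR (adjusted p under 0.05), where 2.29% of all tested genes were. Against HPSC, 8 of 9 were lower, where 4.1% of all tested genes were. The median log2 fold change of the 9 was -4.85 against EC and -4.93 against HPSC, beside 0.20 and 0.38 over all tested genes. Pecam1, which encodes the CD31 of the gate, is counted in these numbers although the sort fixed its direction. Without it the medians were -4.51 and -4.87. Both comparisons share the MC libraries. Ramp2 did not pass in either comparison and Mmrn2 did not pass against EC.

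Cdh5 (chromosome 8, 104101625 to 104144511, plus strand) encodes VE-cadherin, the adhesive core of endothelial adherens junctions. It stood at 43.3 CPM at the lowest, 140 at the median and 729.7 at the highest of the 6 EC libraries, and at 12.5, 310.0 and 832 CPM in HPSC. In MC it stood at 0.874, 2.79 and 4.25 CPM, below every EC and HPSC library. The log2 fold change was -5.96 ± 0.75 (SE) against EC (edgeR adjusted p = 1.16e-04) and -6.44 ± 0.79 against HPSC (6.12e-05).

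Esam (chromosome 9, 37528078 to 37538319, plus strand) encodes an immunoglobulin-type adhesion molecule of endothelial tight junctions. Its lowest, median and highest levels were 85.1, 310.0 and 975 CPM in EC and 21.7, 405 and 1589 CPM in HPSC. MC libraries held 5.43, 11.4 and 15.2 CPM, all below the others, with log2 fold changes of -4.85 ± 0.59 (SE) against EC (edgeR adjusted p = 8.91e-05) and -4.81 ± 0.61 against HPSC (8.13e-05). Cldn5 (chromosome 16, 18776847 to 18778262, plus strand) encodes claudin-5, the sealing claudin of endothelium. It stood at 17.9, 43.7 and 180.2 CPM in EC, 4.26, 74.8 and 146 CPM in HPSC and 0.068, 0.313 and 2.22 CPM in MC. No MC library reached the lowest EC or HPSC library. The log2 fold change of Cldn5 was -6.43 ± 0.94 against EC (edgeR adjusted p = 5.07e-04) and -6.65 ± 0.98 against HPSC (3.33e-04), on 1 to 38 counts in MC.

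Pecam1 (chromosome 11, 106654217 to 106750628, minus strand) encodes CD31, the protein used for the gate, so its difference between populations checks the sort and is no finding. It stood at 93.7, 451 and 1683 CPM in EC, 212, 735 and 2682 CPM in HPSC and 3.0, 6.41 and 11.5 CPM in MC, with every MC library below every EC and HPSC library. Icam2 (chromosome 11, 106377656 to 106388075, minus strand) encodes an adhesion molecule that leukocyte integrins bind. It stood at 48.6, 107 and 460.4 CPM in EC, 50.8, 246 and 622 CPM in HPSC and 0.612, 1.67 and 2.77 CPM in MC, with no overlap between MC and the rest. Its log2 fold change was -6.33 ± 0.63 (SE) against EC (edgeR adjusted p = 1.56e-05) and -6.92 ± 0.64 against HPSC (4.3e-06).

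Emcn (chromosome 3, 137341067 to 137432185, plus strand) encodes endomucin, a sialomucin of the endothelial surface. It stood in MC at 14, 29.0 and 78.6 CPM, against 56.9, 109 and 1234 CPM in EC and 15.5, 305 and 879 CPM in HPSC. The groups overlapped: MC explant positive (78.6 CPM) was above the 3 BRE-GFP negative EC libraries (56.9 to 62.1 CPM) and HPSC explant negative (57.8 CPM), and 5 of 6 MC libraries (24.4 to 78.6 CPM) were above HPSC fresh negative (15.5 CPM). The log2 fold change of MC was -2.42 ± 0.53 (SE) against EC (edgeR adjusted p = 0.0178) and -2.68 ± 0.55 against HPSC (0.00479). The call against EC was lost without EC fresh negative (adjusted p = 0.093), MC cyclopamine positive (0.061) or MC explant positive (0.0578).

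Egfl7 (chromosome 2, 26580014 to 26593120, plus strand) encodes a secreted matrix protein made by endothelium. It stood at 55.8, 88.1 and 847 CPM in EC, 69.7, 259 and 565 CPM in HPSC and 2.38, 6.59 and 35.0 CPM in MC, again without overlap. Its log2 fold change was -4.16 ± 0.44 (SE) against EC (edgeR adjusted p = 2.97e-05) and -4.93 ± 0.46 against HPSC (4.8e-06). Its annotated exons overlap Gm20532 on the same strand (264 bases) and Agpat2 on the other (64 bases), and whether the counting used strand is not given. Agpat2 stood at 0 to 25.1 CPM over the 18 libraries and at 2.52 to 18.2 CPM in MC, beside 2.38 to 35.0 CPM of Egfl7 there. The part of these overlaps was not tested.

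Mmrn2 (chromosome 14, 34375465 to 34404287, plus strand) encodes multimerin-2, a matrix protein that coats vessels. It stood at 19.6, 55.7 and 373 CPM in EC, 0.0969, 102 and 340.1 CPM in HPSC and 0.399, 4.85 and 6.12 CPM in MC. HPSC fresh negative, with 1 count, lay below all 6 MC libraries, while every other HPSC library and every EC library lay above them. The log2 fold change was -3.94 ± 1.08 (SE) against EC (edgeR adjusted p = 0.0685) and -4.09 ± 1.18 against HPSC (0.036). The call against HPSC was lost when any 1 of 11 libraries was left out, at adjusted p from 0.0524 (without EC cyclopamine positive) to 0.0976 (without MC cyclopamine positive). They were EC cyclopamine positive, EC explant positive, HPSC fresh positive, both HPSC cyclopamine libraries, HPSC explant positive and all MC libraries but MC fresh negative. Against EC, Mmrn2 passed without HPSC fresh negative (0.00822) or MC fresh negative (0.0271), and with all libraries by DESeq2 (4.99e-04) and limma-voom (0.0181).

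Ramp2 (chromosome 11, 101246028 to 101259546, plus strand) encodes the accessory protein that turns the calcitonin receptor-like receptor into an adrenomedullin receptor. It stood at 13.5, 44.3 and 269 CPM in EC, 6.01, 69.3 and 209 CPM in HPSC and 0.399, 14.7 and 19.9 CPM in MC. Of the 6 MC libraries, 5 lay between 11.2 and 19.9 CPM, within the range of the BRE-GFP negative EC and HPSC libraries (6.01 to 31.3 CPM). The log2 fold change was -1.69 ± 0.80 (SE) against EC (edgeR adjusted p = 0.433) and -1.64 ± 0.82 against HPSC (0.223), where limma-voom gave 0.0108. Of its 3301 annotated exon bases, 1103 are shared with Vps25 on the same strand. Vps25, a gene of the endosomal sorting machinery, stood at 75.5 to 155 CPM in all 18 libraries, and at 142 CPM in MC fresh positive, where Ramp2 had 2 counts.

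All 6 MC libraries lay below all 12 EC and HPSC libraries for 6 of the 9 genes, all but Emcn, Ramp2 and Mmrn2, against 1.15% of all tested genes. Pecam1, the gene of the gate, is among the 6. Summed over the 9, MC libraries held 63.8 to 137 CPM, EC libraries 457 to 6650 and HPSC libraries 392 to 7780. Without Pecam1 the sums were 57.5 to 126, 363 to 4960 and 181 to 5100 CPM. The 8 other endothelial markers (Tek, Tie1, Kdr, Flt1, Eng, Robo4, Plvap, Sox18) followed the same order, with sums of 21.8 to 141, 197 to 3290 and 75.3 to 2660 CPM, and 6 of 8 were lower in MC than in EC by edgeR. Macrophage and platelet markers were lower in MC too, 7 of 8 and 8 of 8 against EC. Their part in the difference of the junction genes was not tested.

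**Figure D1:**
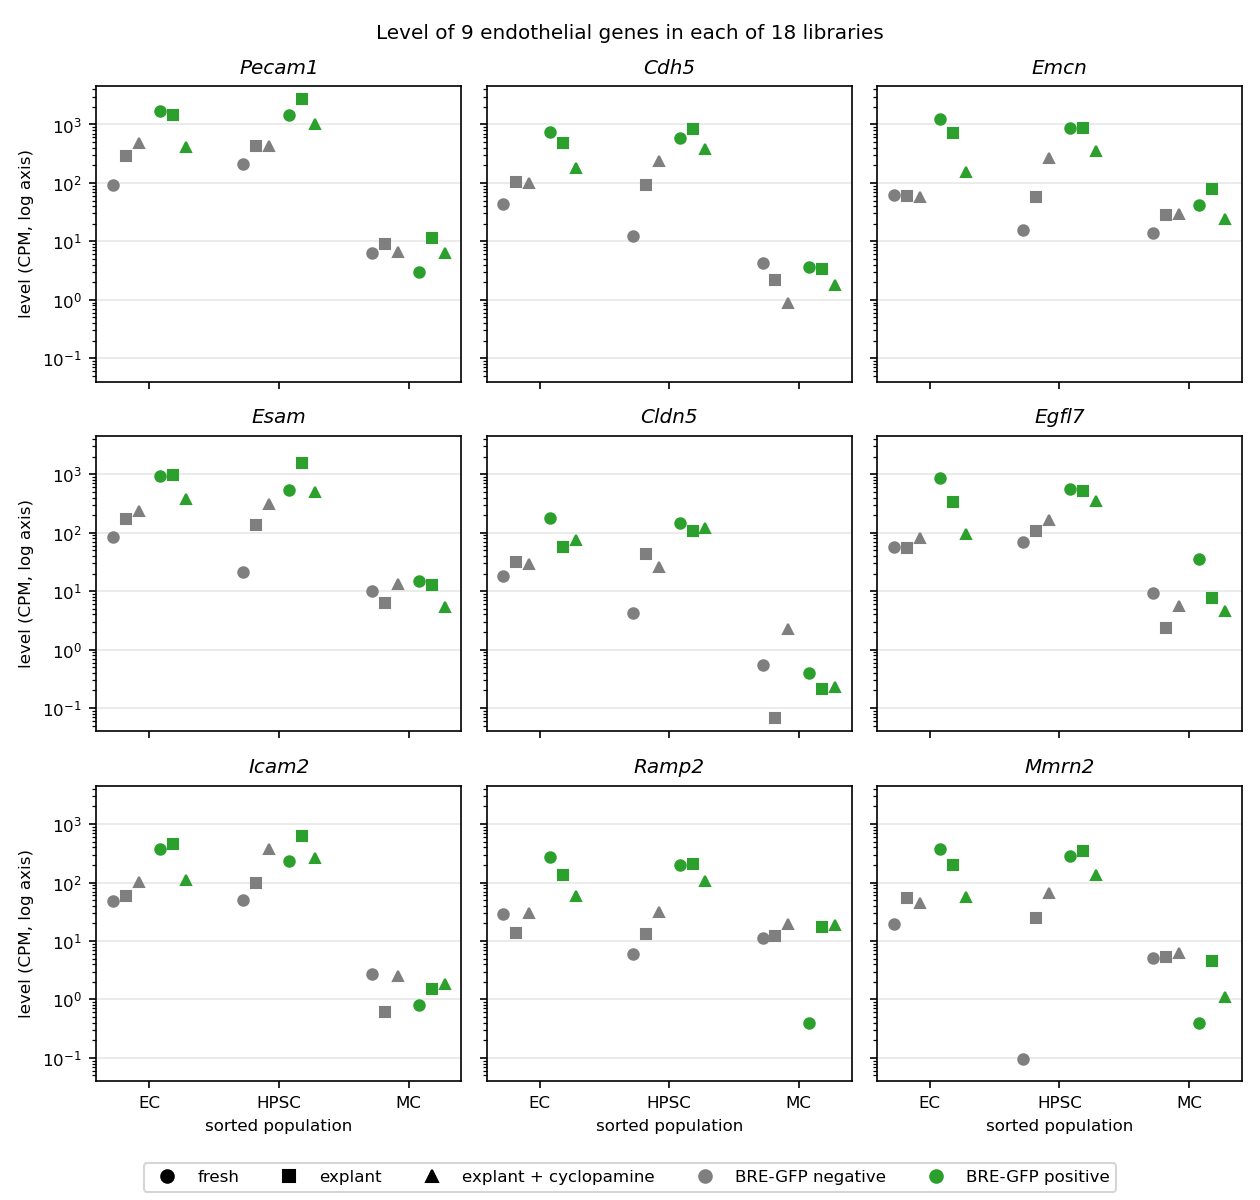
Level of each gene in each library in CPM on a log axis, by sorted population (EC, HPSC, MC); each point is 1 library, its shape the culture and its colour the BRE-GFP fraction. MC libraries lie lowest for most genes, and within EC and HPSC the BRE-GFP positive libraries lie mostly above the negative ones.

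**Figure D2:**
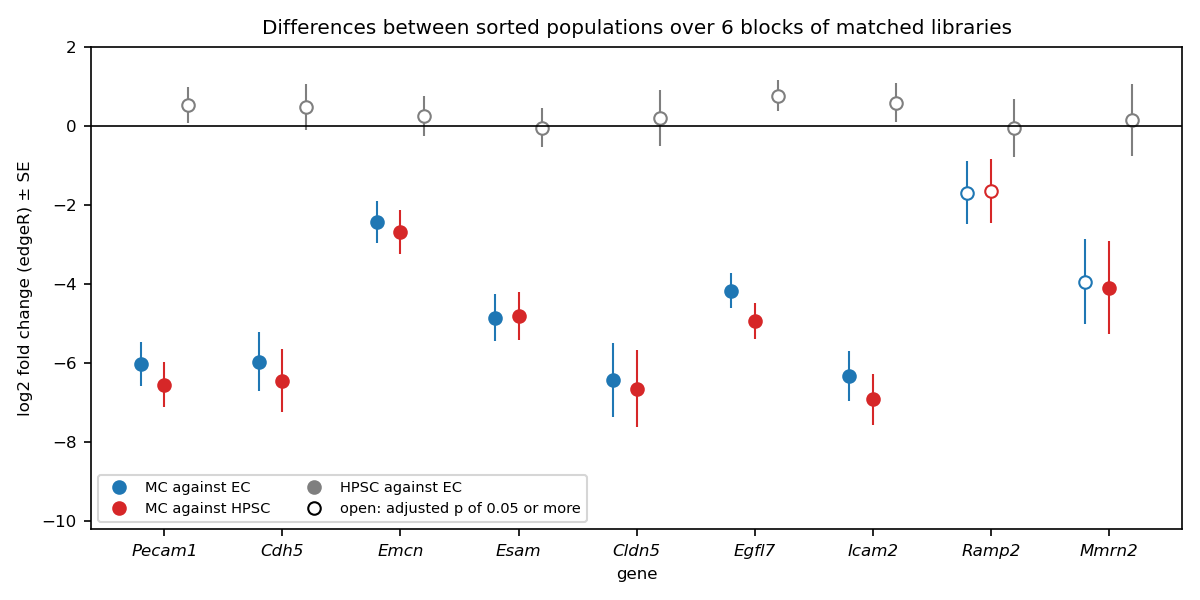
Fitted log2 fold change of each gene for MC against EC, MC against HPSC and HPSC against EC, with the SE as bars (edgeR, 18 libraries); open symbols have an adjusted p of 0.05 or more. The differences of MC run from -1.64 to -6.92, and all 9 differences of HPSC from EC lie between -0.05 and 0.77.

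Per kilobase of annotated exon, the only scale on which levels of different genes are compared here, Esam led in EC with 163 ± 138 CPM per kb (mean ± SD, n = 6) and in HPSC with 180.0 ± 196. Pecam1 followed with 118 ± 106 and 167 ± 149 CPM per kb and Icam2 with 102 ± 94.1 and 144 ± 109. Mmrn2 (31.5 ± 34.6 and 35.7 ± 35.3) and Ramp2 (27.0 ± 29.7 and 28.6 ± 27.9) came last in both populations, behind Cldn5 (45.9 ± 42.5 and 52.3 ± 40.1). Emcn, Egfl7 and Cdh5 lay between them at 64.9 to 70.8 CPM per kb in EC and 74.7 to 84.7 in HPSC. No neighbouring pair in either order differed by more than the SD of either gene. These means pool both BRE-GFP fractions, and the order differed within them: in HPSC negative libraries Icam2 came first (92.3 ± 92.5 CPM per kb, n = 3) and Esam (54.0 ± 50.6) came behind Pecam1 (57.1 ± 20.0), and in EC negative libraries Emcn (11.0 ± 0.473) came behind Cldn5 (18.4 ± 5.05). In MC the order was another, with Emcn first (6.71 ± 4.2), Ramp2 second (4.03 ± 2.2) and Cldn5 last (0.432 ± 0.567 CPM per kb). Of the 3301 exon bases used as the length of Ramp2, 1103 are shared with Vps25. How reads in them were counted is not given, so the place of Ramp2 in these orders may depend on the length used.

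No member passed the test between HPSC and EC. By edgeR 0 of the 9 passed (0 at an unadjusted p under 0.05), where 0.32% of all tested genes did. None passed by DESeq2 or limma-voom either. Log2 fold changes ran from -0.05 (Ramp2) to 0.77 ± 0.39 (SE; Egfl7), with a median of 0.26 beside -0.17 over all tested genes. Level and direction varied between the matched libraries. In fresh BRE-GFP positive libraries all 9 genes were lower in HPSC than in EC, at 0.562 to 0.875 of the EC level. In BRE-GFP positive libraries of explants and of cyclopamine explants all 9 were higher in HPSC, by 1.21 to 1.89 times and 1.32 to 3.7 times. In negative libraries the median ratio was 0.255 in fresh, 0.988 in explants and 1.5 in cyclopamine explants. Each of these ratios rests on 1 library against 1, with no replicate check. The share of all tested genes that moved the same way between these libraries was not computed. These counts are therefore not shown to be particular to the 9. The explant effect in HPSC minus that in EC, a comparison added after the data were seen, covers only part of this pattern. It pools both BRE-GFP fractions and sets explants against fresh cells alone. It therefore cannot test a change within the positive libraries or in cyclopamine explants. All 9 estimates were positive (0.53 to 1.74, median 1.16, beside 0.36 over all tested genes), but the median was -0.02 without EC fresh positive and 3.08 without HPSC fresh positive. None passed by edgeR (0 at an unadjusted p under 0.05), as was so for 0% of all genes.

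BRE-GFP positive libraries held more transcript of the junction and surface genes than negative libraries of the same population and culture in 52 of 54 comparisons within EC and HPSC. These are 9 genes in 6 pairs of libraries, so they are not 54 separate comparisons. Of all 16231 tested genes, 6318 (fresh HPSC) to 9213 (explant EC) were higher in the positive library of a pair. The median ratio of the 9 genes was 17.4 in fresh AGM, 6.32 in explants and 1.72 in cyclopamine explants. Over all tested genes it was 1.0 to 1.2 in the 6 pairs. Of the 9 genes, 7 were higher in the positive library in all 6 pairs, which held for 3.78% of all tested genes. The exceptions were Pecam1 in EC of cyclopamine explants (419 against 482 CPM) and Icam2 in HPSC of cyclopamine explants (261 against 377 CPM). None of the 9 was at least 2-fold higher in all 6 pairs, as 0.832% of all genes were.

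Cdh5 stood at 43.3 CPM in the negative and 729.7 CPM in the positive library of fresh EC, and at 12.5 and 579 CPM in fresh HPSC. In explants the values were 103 and 485 CPM in EC and 91.6 and 832 CPM in HPSC. In cyclopamine explants they were 98.8 and 178 CPM in EC and 235 and 385 CPM in HPSC. All 3 positive libraries of EC lay above all 3 negative ones, and the same held in HPSC.

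Esam ran the same way, from 85.1 to 950.4 CPM in fresh EC, 172 to 975 CPM in explant EC and 239.9 to 380.0 CPM in cyclopamine EC, negative first. In HPSC it went from 21.7 to 535 CPM in fresh, 133 to 1589 CPM in explants and 309 to 502 CPM in cyclopamine explants. Here too the fractions did not overlap within a population. Cldn5, at 17.9 and 180.2 CPM in fresh EC and 4.26 and 146 CPM in fresh HPSC, had the smallest explant ratios, 1.79 in EC (31.3 and 56.1 CPM) and 2.42 in HPSC (43.8 and 106 CPM). In cyclopamine explants its ratios were 2.6 and 4.48, above its explant ratios, unlike the other 8 genes.

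Emcn had the widest ratio in EC in each culture. It stood at 62.1, 59.7 and 56.9 CPM in the negative EC libraries of fresh, explant and cyclopamine explant cells and at 1234, 727 and 156 CPM in the positive ones. In HPSC the negative libraries held 15.5, 57.8 and 264 CPM and the positive ones 862, 879 and 346 CPM. The 3 negative EC libraries were near each other while the positive ones differed widely, and in HPSC both fractions differed.

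Egfl7 stood at 57.3, 55.8 and 81.4 CPM in the negative EC libraries of the same 3 cultures and at 847, 329 and 94.8 CPM in the positive ones. In HPSC it stood at 69.7, 105 and 167 CPM in negative and 565, 517 and 350.4 CPM in positive libraries. Egfl7 had the lowest adjusted p of the 9 over all 9 pairs (log2 fold change 1.83 ± 0.40 (SE), edgeR adjusted p = 0.21).

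Mmrn2 stood at 19.6 and 373 CPM in fresh EC, 55.3 and 202 CPM in explant EC and 44.7 and 56.1 CPM in cyclopamine EC, negative first. In HPSC explants it stood at 25.0 and 340.1 CPM and in cyclopamine HPSC at 67.1 and 137 CPM. Fresh HPSC had 1 count in the negative and 2365 in the positive library, a ratio of 2920 with a 95% interval from 524 to 115000 that covers counting error only. Ramp2 stood at 29.1 and 269 CPM in fresh EC and 6.01 and 198 CPM in fresh HPSC, and at 29.8 and 58.9 and at 31.3 and 107 CPM in the cyclopamine pairs. Neither gene had an EC or HPSC pair in which the negative library was higher.

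Icam2 and Pecam1 had the exceptions. Icam2 stood at 48.6, 57.8 and 103 CPM in the EC negative libraries of fresh, explant and cyclopamine explant cells, and at 50.8, 99.2 and 377 CPM in the HPSC negative ones. Its positive libraries held 380.1, 460.4 and 111 CPM in EC and 230.0, 622 and 261 CPM in HPSC. Pecam1 stood at 93.7, 288 and 482 CPM in EC negative and 212, 420.0 and 435 CPM in HPSC negative libraries, against 1683, 1459 and 419 CPM and 1472, 2682 and 1034 CPM in the positive ones.

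**Figure D3:**
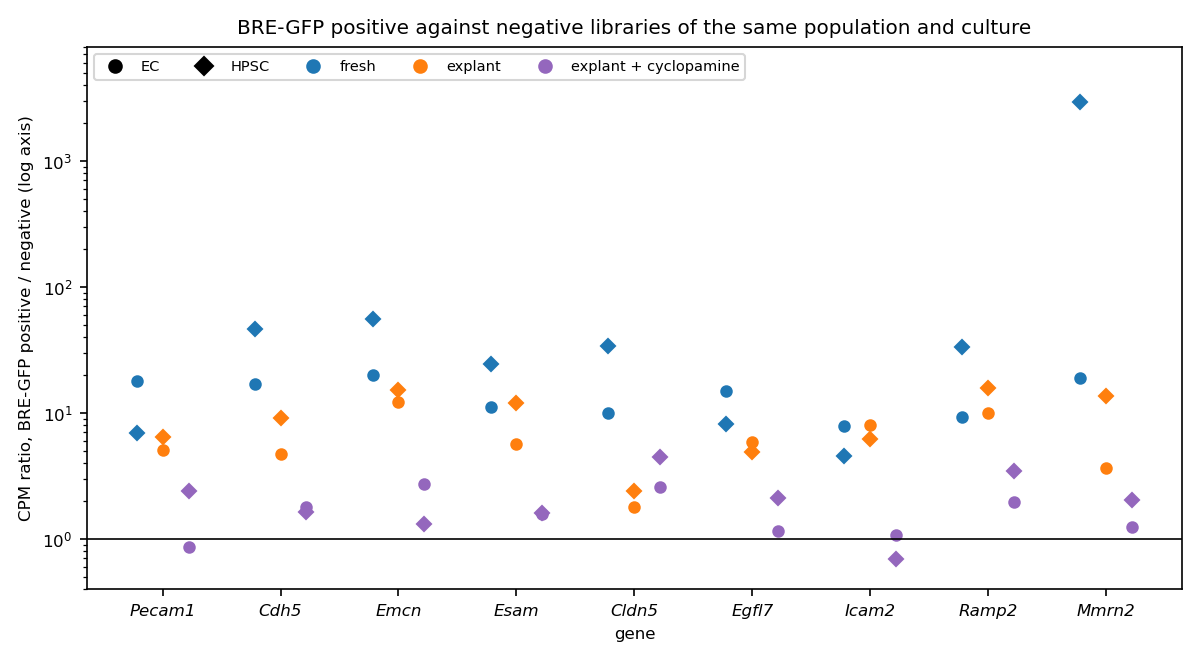
Ratio of CPM in the BRE-GFP positive to the negative library for each gene, on a log axis, with circles for EC, diamonds for HPSC and colours for the culture; the line marks a ratio of 1. Fresh pairs lie highest for most genes, cyclopamine pairs run from 0.693 to 4.48 with 7 of 18 at 2 or more, and the highest point, Mmrn2 in fresh HPSC, rests on 1 count in the negative library.

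Few of these differences passed a test. Over all 9 pairs, MC included, none of the 9 passed by edgeR, where 0.0554% of all tested genes did (9 genes). Of the 9 members, 7 had an unadjusted p under 0.05 and all 9 log2 fold changes were positive (1.15 to 2.43, median 1.76, beside 0.11 over all tested genes). DESeq2 called 4 (Cdh5, Emcn, Esam and Egfl7) and 371 genes in all, and limma-voom called 5 (the same 4 and Pecam1) and 73 genes in all. In EC, none passed by edgeR, where 0.0123% of all genes did. There, 7 had an unadjusted p under 0.05, and the log2 fold changes ran from 1.82 to 3.16 with a median of 2.24, beside 0.33 over all genes. With 1 library left out, the value of Pecam1 in EC ran from 1.07 to 3.25 and that of Egfl7 from 1.39 to 3.22. DESeq2 called 2 in EC (Emcn and Egfl7) of 426 genes in all, and limma-voom 0 of 5.

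In HPSC, none passed by edgeR, where 0.037% of all genes did, and 8 had an unadjusted p under 0.05. Log2 fold changes ran from 1.5 ± 0.78 (SE; Icam2, edgeR adjusted p = 0.685) to 4.21 ± 1.57 (Mmrn2, 0.555), with a median of 3.05 beside 0.23 over all genes. Esam had the lowest adjusted p (3.05 ± 0.81, 0.309). With 1 library left out, the value of Cdh5 in HPSC ran from 2.0 to 4.36 and that of Mmrn2 from 2.45 to 6.63. DESeq2 called 8 of the 9 in HPSC, all but Icam2, of 929 genes in all. Limma-voom called 3 of 51 (Pecam1, Emcn and Esam). The BRE-GFP effect in HPSC minus that in EC passed for none of the 9 by edgeR (0 at an unadjusted p under 0.05; 0% of all genes), with estimates from -0.59 (Icam2) to 2.10 (Mmrn2).

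In MC the genes showed no such direction. The positive library was higher in 12 of 27 comparisons (median ratio 0.953), 8 of them in explants, where the median ratio was 2.07. Over all tested genes the median ratio was 0.663 in fresh, 1.01 in explant and 1.0 in cyclopamine explant MC. Egfl7 stood at 9.43 and 35.0 CPM in fresh MC, negative first, and Emcn at 14 and 42.7 CPM. Ramp2 stood the other way, at 11.2 and 0.399 CPM.

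The gap between fractions was smaller in cyclopamine explants than in fresh cells in these libraries. It was tested as the BRE-GFP effect in cyclopamine explants minus that in fresh cells over EC and HPSC, in a comparison added after the data were seen. This comparison changes culture and drug together, which cannot be told apart in it. Its cyclopamine negative libraries also had the fewest detected genes of their populations, 11006 in EC and 10297 in HPSC. The part of this in the smaller gap was not tested. All 9 estimates were negative, from -2.43 to -6.27 on the log2 scale, with a median of -2.96 beside 1.15 over all tested genes. That fitted value over all genes is larger than the single pairs show. Their median ratios over all genes were 1.0 in both fresh pairs, and 1.14 (EC) and 1.03 (HPSC) in cyclopamine pairs. Cdh5 had -4.02 ± 0.71 (SE; edgeR adjusted p = 0.0685) and Emcn -4.13 ± 0.79 (0.077). None passed by edgeR, where 0.0123% of all genes did, and 7 had an unadjusted p under 0.05. DESeq2 called 7 of the 9 and 1998 genes in all, and limma-voom 4 (Pecam1, Cdh5, Emcn and Esam) and 308 genes in all. With 1 library left out, edgeR called 2 without any 1 of the 4 cyclopamine libraries of EC and HPSC, where 4.18 to 6.98% of all genes were called. It called 1 without either MC cyclopamine library (0.112 and 0.118% of all genes) and 0 otherwise. The highest adjusted p was 0.425 for Cdh5 (without HPSC fresh positive) and 0.428 for Emcn (without HPSC fresh negative).

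The BRE-GFP effect in cyclopamine explants minus that in explants, where the labelled difference is the drug, was tested in the same model and was also added after the data were seen. The same cyclopamine negative libraries, with the fewest detected genes of their populations, enter here. Their part was not tested. Estimates were negative for 8 of 9 genes and positive for Cldn5 (0.71 ± 1.28 (SE), edgeR adjusted p = 0.929), with a median of -2.14 beside 0.58 over all tested genes. The single pairs did not show this rise over all genes. Their median ratios were 1.2 (EC) and 1.07 (HPSC) in explants, and 1.14 and 1.03 in cyclopamine explants. Icam2 had -3.04 ± 0.82 and Emcn -2.85 ± 0.76 (edgeR adjusted p = 0.153 for both). None of the 9 passed by edgeR, where 0.111% of all genes did, and 6 had an unadjusted p under 0.05. DESeq2 called 2 (Emcn and Icam2) and 1569 genes in all, and limma-voom 1 (Icam2) and 187 genes in all. Without EC cyclopamine negative or EC cyclopamine positive edgeR called 2, where 8.93 and 8.85% of all genes were called. All 8 macrophage markers had estimates above 0 here (median 2.52), and 4 of 8 other endothelial markers did (median -0.13).

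Other cell markers moved with the BRE-GFP fraction. The summed level of the 8 other endothelial markers was higher in the positive library in 6 of 6 EC and HPSC pairs. The sums were 75.3 to 380 CPM in negative and 398 to 3290 CPM in positive libraries. In cyclopamine EC they were nearly equal, at 379.9 and 397.8 CPM, negative first. There Kdr, Flt1, Eng and Plvap were lower in the positive library (ratios 0.759, 0.275, 0.352 and 0.358) and Tek, Tie1, Robo4 and Sox18 higher. Eng was also lower in cyclopamine HPSC (0.219). The sum was likewise higher in the positive library in 3 of 3 MC pairs. Macrophage markers summed higher in the negative library in 5 of 6 pairs (1210 to 6090 CPM in negative, 573 to 4120 CPM in positive libraries), and blood progenitor markers in 6 of 6 (907 to 10450 CPM in negative, 141 to 2359 CPM in positive libraries). Erythroid markers also summed higher in the negative library in 6 of 6 pairs, while mesenchymal and sympathetic neural markers each summed higher in the positive library in 5 of 6, the direction of the members. In fresh EC negative, macrophage markers summed to 6093 CPM and the 9 junction and surface genes to 457 CPM, against 965 and 6647 CPM in fresh EC positive. In the comparison of cyclopamine with fresh, all 8 macrophage markers had estimates above 0 (median 3.24) and 7 of 8 endothelial markers below 0 (median -2.71). Estimates above 0 were also found for 7 of 8 blood progenitor, 7 of 8 platelet, 5 of 7 erythroid, 7 of 7 mesenchymal and 5 of 5 sympathetic neural markers. The medians of these lists were 3.44, 3.74, 3.1, 0.82 and 3.88. Over all tested genes the median was itself above 0 in this comparison, at 1.15, so a count above 0 alone does not set a list apart. The positive library had the higher total count in 5 of 6 pairs. The part of these differences in the BRE-GFP result was not tested. The ratio of the 9 genes' sum to that of the 8 endothelial markers was 2.32 to 7.74 in negative and 1.83 to 4.56 in positive libraries, higher in the positive library in 3 of 6 pairs.

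**Figure D4:**
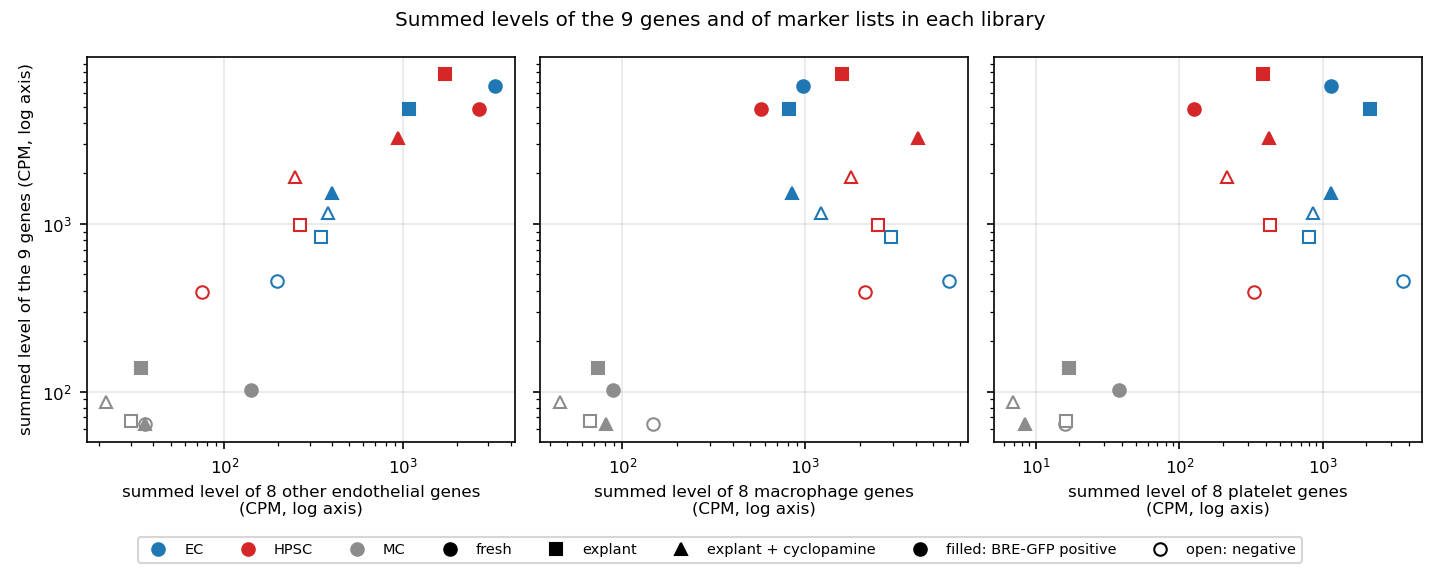
Summed CPM of the 9 genes against summed CPM of 8 other endothelial, 8 macrophage and 8 platelet marker genes in each library, on log axes; colour gives the population, shape the culture and fill the BRE-GFP fraction. The 9 genes' sum rises with that of the other endothelial markers, and the BRE-GFP negative EC and HPSC libraries have sums of 392 to 1910 CPM against 1530 to 7780 in the positive ones.

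No gene's average level passed a test for explant culture or cyclopamine. Against fresh cells, none of the 9 passed in explants by edgeR (0 at an unadjusted p under 0.05), where 0.136% of all genes did. Log2 fold changes ran from -1.0 ± 0.48 (SE; Egfl7, edgeR adjusted p = 0.596) to 0.82 ± 0.40 (Pecam1, 0.597), median 0.24 beside 0.18 over all genes. Cyclopamine explants against explants gave -0.47 to 0.43, and none passed, as for 0% of all genes (0 at an unadjusted p under 0.05). Within EC, none passed for explant against fresh (0.00616% of all genes) or for cyclopamine (0%), with 0 at an unadjusted p under 0.05 in both. The EC median for explant against fresh, -0.06, was -1.20 without EC fresh negative and 1.15 without EC fresh positive. Within HPSC, all 9 estimates were above 0 (0.17 to 1.91, median 1.19, beside 0.28 over all genes), but the median was -0.18 without HPSC fresh negative and 2.99 without HPSC fresh positive. In this HPSC comparison Esam alone had an unadjusted p under 0.05 (1.91 ± 0.85, edgeR adjusted p = 1), and none of the 9 or of all genes passed (0%). Cyclopamine in HPSC gave -0.59 to 1.12 with none passing (0 at an unadjusted p under 0.05; 0% of all genes). Its effect in HPSC minus EC passed for none either (-0.54 to 2.05; 0 at an unadjusted p under 0.05; 0% of all genes). DESeq2 and limma-voom called none of the 9 in these culture comparisons.

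The fractions differed in direction between explants and cyclopamine explants. From explant to cyclopamine explant, 8 of 9 genes were lower in the positive libraries of EC (median ratio 0.288) and 8 of 9 in those of HPSC (0.42). Cldn5 was the exception in both, at 1.35 and 1.12. In the negative libraries, 5 of 9 were higher in EC (median ratio 1.39) and 8 of 9 in HPSC (2.34). From fresh to explant, all 9 were higher in HPSC negative libraries (1.51 to 258 times, the highest being Mmrn2 on its 1 count) and 7 of 9 in HPSC positive libraries (median 1.2). In EC, 6 of 9 were higher in negative libraries (median 1.74) and 7 of 9 lower in positive ones (0.589). Each is a ratio of 1 library to 1 and has no replicate check. All tested genes moved too. With both fractions together, their fitted median log2 fold change from explant to cyclopamine explant was -0.36 in EC and -0.68 in HPSC. From fresh to explant it was -0.01 in EC and 0.28 in HPSC. The share of all genes that moved each way within a fraction was not computed, so these counts are not shown to be particular to the 9.

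Of 32 partner genes of the same junctions, receptor and surface families, 6 were lower in MC than in EC (2.29% of all tested genes were) and 9 lower than in HPSC (4.1%), and 0 were higher. Ctnnb1 and Ctnnd1, the beta- and p120-catenin that bind the VE-cadherin tail, stood at 412 to 973 and 78.9 to 366 CPM in EC, 320 to 1100 and 94.3 to 336 CPM in HPSC and 422 to 776 and 109 to 265 CPM in MC. These ranges overlap, and the log2 fold changes of MC against EC were -0.25 ± 0.25 (SE; edgeR adjusted p = 0.813) and 0.14 ± 0.35 (0.946). Ptprb, the VE-cadherin-associated phosphatase, stood at 0.599 to 9.46 CPM in MC, 0.39 to 484 CPM in EC and 5.62 to 285 CPM in HPSC, with -3.13 ± 1.02 against EC (0.15) and -3.95 ± 1.03 against HPSC (0.0225).

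Tjp1, the scaffold ZO-1 of tight junctions, stood at 30.2 to 65.5 CPM in MC against 53.5 to 286 CPM in EC (-1.39 ± 0.63 (SE), edgeR adjusted p = 0.409). In HPSC it stood at 6.68 to 366 CPM, and HPSC fresh negative (6.68 CPM) lay below every MC library. F11r, the junctional adhesion molecule A, fell in MC by 1.83 on the log2 scale against EC (adjusted p = 0.0125) and by 1.81 against HPSC (0.00665). Calcrl, the receptor that Ramp2 escorts, stood at 45.6 to 148 CPM in MC, 88.3 to 1140 in EC and 192 to 1060 in HPSC. It was lower in MC than in HPSC (-1.89 ± 0.45, 0.0136) and did not pass against EC (-1.27 ± 0.45, 0.212). Cd93, a C-type lectin that binds multimerin-2, fell in MC by 4.33 against EC (adjusted p = 0.0011) and by 5.41 against HPSC (2.39e-04). Clec14a, another ligand of multimerin-2, stood at 3.62 to 57.5 CPM in MC, 0.13 to 393 in EC and 0.0969 to 257 in HPSC and did not pass (adjusted p = 0.804 and 0.534).

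The other partners lower in MC than in EC were Mmrn1 of platelets and lymphatic vessels (-8.27), the sialomucin gene Cd34 (-2.62) and the leukocyte integrin genes Itgal (-4.0) and Itgb2 (-5.20). The integrin genes mark leukocytes and not endothelium. Cd34, Itgb2, Mmrn1 and Itgal were lower against HPSC as well (log2 fold changes of -3.46, -5.68, -8.11 and -4.95), as was Jup, a catenin gene named after its value was seen. HPSC against EC called 0 of 32. Of the 32, Cd34 was the one that passed for BRE-GFP positive against negative, in the test within EC: it rose by 2.42 ± 0.34 on the log2 scale (edgeR adjusted p = 0.0489), from 61.9 to 157 CPM in the 3 negative to 284 to 1250 CPM in the 3 positive libraries. In HPSC it did not pass (1.34 ± 0.33, 0.265), and the difference of the effects did not either (adjusted p = 1). Icam1, an adhesion molecule for leukocytes, passed for the BRE-GFP effect in cyclopamine explants minus explants (edgeR adjusted p = 0.0254), with 1 count in each of the 2 lowest libraries, EC and HPSC cyclopamine negative.

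Partners differed in whether they followed the members' BRE-GFP ratio. In fresh EC and HPSC, Ptprb had ratios of 12 and 50.4, Cd93 of 10.5 and 35.5 and Tjp1 of 5.35 and 45.1. Ctnnb1 and Ctnnd1 had ratios of 2.36 to 3.42 in fresh cells. The fresh ratios did not hold in every culture. Tjp1 had 1.34 in explant EC and 0.327 in cyclopamine EC (255 CPM in the negative and 83.5 CPM in the positive library), against 4.78 and 4.53 in HPSC. Ctnnd1 had 0.785 in explant EC and 1.64 to 2.49 in its other explant and cyclopamine pairs. In cyclopamine EC, Ptprb had 77.2 and Clec14a 152, on 3 and 1 counts in the negative library. Calcrl stood at 110 and 1140 CPM in fresh EC, negative first, but at 422 and 88.3 CPM in cyclopamine EC, so the receptor gene and Ramp2 (29.8 and 58.9 CPM there) differed in direction. Clec14a had 1 count in HPSC fresh negative and 2147 in the positive library (ratio 2650, 95% interval 476 to 105000, counting error only), as Mmrn2 did. None of these passed by edgeR in EC or HPSC.

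The 9 genes varied together within the 12 CD31-sorted libraries, which share the sort by population and BRE-GFP fraction. Pearson correlations of log2 CPM between members ran from 0.681 (Cldn5 and Icam2) to 0.977 (Cdh5 and Esam), with a median of 0.879 over the 36 pairs. Mmrn2 was nearest to Cdh5 (Pearson 0.943, Spearman 0.993). Ramp2 was nearest to Emcn (Pearson 0.958, Spearman 0.951) and Pecam1 to Egfl7 (0.914, 0.909). These are descriptions over libraries that also share their depth and cell makeup.

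Of 9825 named genes with a mean of at least 10 CPM, those whose log2 CPM was most like the 9 genes' mean z-score over the 18 libraries were Ecscr (Pearson 0.973), Arhgap18 (0.971), Gja4 (0.97), Notch4 (0.964) and Rasgrp3 (0.961). Cd38 and Apold1 (both 0.958), F11r (0.952), Pde2a (0.951) and Thsd1 (0.948) followed. Ecscr, Apold1 and Thsd1 are known from endothelium, Gja4 encodes the gap junction protein connexin 37, and Notch4 is the Notch receptor of endothelium. In the 12 EC and HPSC libraries alone, where the gap to MC does not enter, their correlations were 0.857 (Thsd1) to 0.956 (Pde2a). Ecscr ran from 4.55 to 1210 CPM over the 18 libraries and Gja4 from 0.999 to 531 CPM.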

How the data were processed

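RNA from cells sorted out of mouse embryonic day 11 AGM was sequenced from 18 libraries (SMARTer amplification, per the labels' protocols). For each library the authors deposited raw counts of reads by gene symbol, not normalized. TopHat, Cufflinks, HTSeq and mm10 are named per the submitters' processing notes; the sources used here do not give their versions, the annotation or the strand setting. Reads at no feature (19.5 to 49.4%) and other lines that name no gene were left out.

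Counts were tested with edgeR 4.0.16 (R 4.3.3; quasi-likelihood F test, TMM, Benjamini-Hochberg adjusted p under 0.05 over all tested genes), on genes with at least 0.796 CPM in at least 3 libraries. Populations were compared in 6 blocks of the same culture and fraction, fractions in 9 pairs, and cultures in 6 blocks, with 5 to 10 residual degrees of freedom. Members and lists were chosen with earlier results of these data known. All 9 members are named, with called partner genes up to 6 by lowest p, 7 direct binding partners and the 10 most similar genes. Alternatives were DESeq2 1.42.0, limma-voom (limma 3.58.1), DESeq2 size factors, no filter, an additive model and leaving out each library in turn. The share of reads at no feature as a covariate and leaving out the libraries of fewest detected genes were added after seeing the data. The tests were run on simulated data first. Coordinates and exon lengths are from GENCODE M21 (GRCm38).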

Additional observations from a re-analysis of the deposited data

Results flagged for a closer look

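In 27 groups of 6 libraries (9 genes in 3 populations), 1 library stood apart from the others in 2 by Dixon's criterion on log2 CPM, which flags about 1 in 20 groups by chance. Ramp2 in MC fresh positive stood at 0.399 CPM, while the other 5 MC libraries held 11.2 to 19.9 CPM. MC fresh positive had the fewest detected genes of the MC libraries (12028). Mmrn2 in HPSC fresh negative stood at 0.0969 CPM (1 count), while the other 5 HPSC libraries held 25.0 to 340 CPM. Clec14a also had 1 count in that library.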

How the results depend on the processing

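The number of members called over the BRE-GFP pairs was 0 by edgeR, 4 by DESeq2 and 5 by limma-voom, and in EC it was 2 by DESeq2. In HPSC it was 4 with no filter on low counts (0.469% of all genes), 1 without the libraries of fewest detected genes (Ramp2; 0.0611%), 8 by DESeq2 and 3 by limma-voom. For the BRE-GFP effect in cyclopamine minus fresh it was 4 with no filter (0.938%), 7 by DESeq2, 4 by limma-voom and 0 to 2 with 1 library left out. For cyclopamine minus explant it was 2 by DESeq2, 1 by limma-voom and 0 to 2 with 1 library left out. No log2 fold change of a member changed sign under any alternative or left-out library in these comparisons or in MC against EC and MC against HPSC. For MC against EC, the number called stayed at 6 to 8 with 1 library left out, and for MC against HPSC at 7 or 8. In HPSC against EC, signs changed in 5 of 63 alternative values and 16 of 162 with a library left out, and in explant against fresh in 11 of 63 and 14 of 162, none of them called. The cyclopamine minus fresh and minus explant effects could not be fitted without the libraries of fewest detected genes. No paired analysis was possible because all libraries carry the same replicate number, so the numbers pair nothing. The tests matched libraries by population, culture or fraction instead, and the additive model without this matching called 0 for BRE-GFP and 8 for MC against EC and against HPSC. With 1 library per combination, counting error of single ratios is known but the spread between repeat sorts is not.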
